A study of Mus musculus with 8 samples.

Results

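The solute carriers (Slc genes) encode the largest class of membrane proteins that move small molecules, among them amino acids, sugars, nucleosides, vitamins, metal ions and the substrates of mitochondria, across the membranes of animal cells. Here they were taken as every gene whose symbol starts with Slc and a digit and that had at least 1 called N6-methyladenosine (m6A) site in both siNC libraries, which gave 142 genes of the 8806 named genes that met the same condition. Of the 142 symbols, 142 were found in the mouse name table, and 4 of them name no transporter: Slc4a1ap encodes an adaptor protein, Slc7a6os lies opposite Slc7a6, and Slc25a5-ps and Slc2a4rg-ps are pseudogenes. At least 1 site shared by both siNC lists was present in 136 of the genes, and these shared sites numbered 844 of 49554 in all.

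The libraries were made by GLORI, a chemical method in which unmethylated adenosine is converted and read as guanosine while m6A is still read as adenosine, so that the level of a site is its unconverted A reads divided by all its A and G reads. Mouse TBLC cultured in MYCP medium received siVirma, an siRNA against Virma, or siNC, their control, with 2 libraries in each group. Mouse EPSC carried the guide sgGata6 or the guide sgCtrl, again with 2 libraries labelled in each group, and the series ties these to a targeting system that joins dCas13b to the demethylase FTO. The labels do not say whether the libraries of a group came from separate cultures, so p-values cover the spread between the deposited libraries and no more, and that spread may be technical.

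Virma is the largest subunit of the nuclear complex that writes m6A, in which a pair of methyltransferase proteins transfers the methyl group and the other subunits place the enzyme on RNA. m6A in messenger RNA is known for its clustering near stop codons and in long internal exons, and for reader proteins that shorten the life of the transcripts that carry it. In pluripotent cells solute carriers are best known for feeding rapid growth: glucose enters through members of the Slc2 family, lactate leaves through the Slc16 family, and neutral amino acids exchange through pairs such as Slc7a5 with its heavy chain Slc3a2.

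The TBLC lists held 2655963 to 4764955 A and G reads over called sites. Gene coverage, the authors' value per gene, was 24.1 and 22.8 for Virma in siVirma, against 40.3 and 38.2 in siNC, a centred ratio of 0.532 (adjusted p = 0.000403, limma). The authors' conversion rate per gene had a median over Slc genes of 0.988 and 0.988 in siVirma, against 0.980 and 0.979 in siNC. Of 10 pluripotency markers 8 were in all 4 lists, and of these 0 had higher and 1 had lower coverage in siVirma. Of 20 fibroblast markers, taken as signs of feeder cells, 13 were in all 4 lists and Dcn was in none. Of the 13, 9 had higher and 0 had lower coverage, with summed values of 800.1 and 661.9 in siVirma against 472.1 and 446.7 in siNC. The sums are not centred, and the median gene had a log2 shift of 0.17 towards siVirma. Of 10 primitive endoderm markers 5 were in all 4 lists, 0 higher and 2 lower, and Sox7 and Foxa2 were in none. For scale, 9.15% of the 6787 genes in all 4 lists were called higher and 12.4% lower. Because these are bulk samples of listed genes, fewer cells of a type and less RNA per cell cannot be told apart.

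Slc transcripts carried m6A at several positions each. In siNC the median Slc gene had 4 shared sites, against 3 over all genes, with quartiles of 2 and 8.75 against 1 and 7. A single shared site was found in 20 Slc genes, and 28 genes, or 19.72%, had 10 or more, against 16.06% of all genes. Slc7a1, which carries cationic amino acids, had the most with 27 shared sites. It was followed by the thiamine transporter Slc19a2 and the mitochondrial pyrimidine nucleotide carrier Slc25a36 with 23 each, Slc38a2 with 19, and the zinc exporter Slc30a1 and Slc45a4 with 18 each. The number of shared sites was higher in genes with more coverage (Spearman's rho 0.455 over 136 Slc genes, against 0.141 over all genes), a relation across genes that share the same libraries. Sites lay close together, with a median distance of 62.5 nt to the nearest shared site of the same gene, against 55 nt over all genes.

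The level of Slc sites in siNC spanned the whole listed range. Its median was 0.408 over the 844 sites, against 0.410 over all sites, and 77 sites, or 9.12%, were at 0.9 or more, against 8.51%. Sites of the same gene differed widely. Among the 70 Slc genes with at least 5 shared sites, the gap between the highest and the lowest site had a median of 0.726, and in 64 of them it was at least 0.5. In Slc2a3, the high-affinity glucose transporter, the 9 shared sites had mean siNC levels of 0.133 to 0.960, and in Slc2a1, the main glucose transporter of growing cells, the 13 sites ran between 0.108 and 0.967. Slc30a1 and Slc25a36 each held a site at 1.0 beside a lowest site of 0.181 in Slc30a1 and 0.121 in Slc25a36.

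Fewer Slc sites were called after siVirma. The lists held 651 and 557 Slc sites in siVirma, against 1087 and 1043 in siNC. Of the 844 shared sites, 385 (45.6%) were called in both siVirma libraries, against 47.1% over all sites, and 295 (34.95%) were called in neither, against 33.1%. For scale, 77.6% of the Slc sites of siNC replicate 1 were also called in siNC replicate 2, and 80.9% the other way round. A site enters a list only with at least 15 A and G reads, 5 A reads and a level of 0.1, so a site that is missing may have a lower level or fewer reads. Sites were chosen by siNC calls, so this count can only go down, and the other direction was read from the 467 Slc sites in both siVirma lists. Of those, 28 (6.00%) were in neither siNC list, against 5.93% over all sites.

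Whether a Slc site stayed in the siVirma lists followed its level in siNC. Of 295 sites with a siNC level under 0.3, 18 (6.10%) were called in both siVirma libraries. The share was 35.3% between 0.3 and 0.5, 77.9% between 0.5 and 0.7, 89.8% between 0.7 and 0.9 and 90.9% at 0.9 or more. The depth of a site moved with this share much less, with 42.3% of sites under 30 reads called in both and 46.4% of those with 120 reads or more, although these deeper sites had a lower median siNC level of 0.255, against 0.557 under 30 reads. Over all sites the same level classes gave 7.57%, 42.0%, 75.2%, 88.9% and 92.7%. Among sites still called, the median level left in siVirma, as a percentage of siNC, was 39.7% and 39.3% in the classes between 0.3 and 0.7, 45.7% between 0.7 and 0.9, and 63.4% at 0.9 or more. The 55.3% in the lowest class covers only the 18 sites that stayed above the listing minimum.

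**Figure D1:**
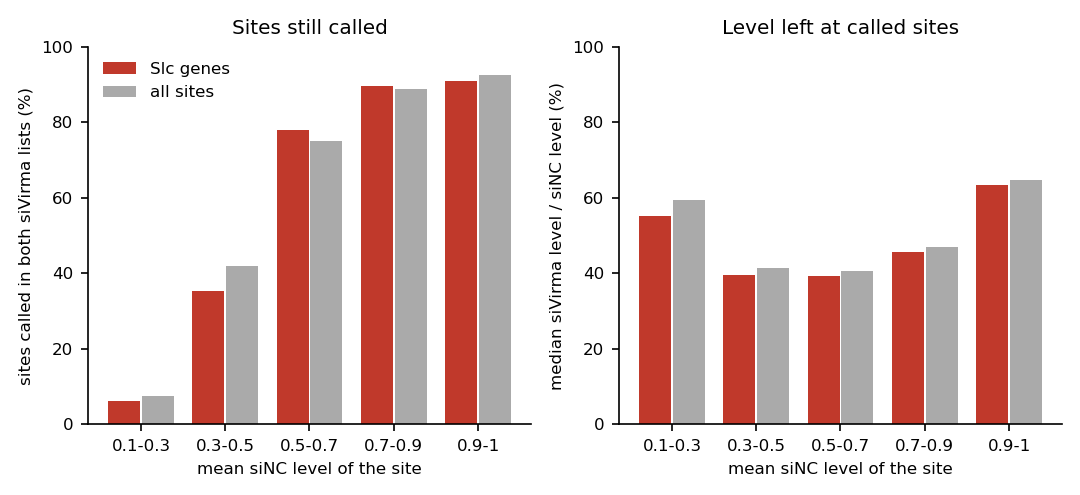
Shared siNC sites grouped by their mean siNC level (x axis), with Slc sites in red and all sites in grey. Left, the percentage called in both siVirma lists, which for Slc sites is 6.10% in the lowest class and 90.9% in the highest; right, the median percentage of the siNC level left in siVirma at sites still called, lowest at 39.3% in the class 0.5 to 0.7 and 63.4% in the highest class.

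Genes differed in how many of their sites stayed. Among the 70 genes with at least 5 shared sites, the proton-coupled folate transporter Slc46a1 kept 0 of 5 in both siVirma lists, the inositol transporter Slc5a3 1 of 7, the neutral amino acid exchanger Slc1a4 1 of 6 and the ADP/ATP carrier Slc25a5 1 of 6. The highest shares were 8 of 10 in Slc33a1, which brings acetyl-CoA into the endoplasmic reticulum, 7 of 9 in Slc2a3, 6 of 8 in Slc35f6 and 11 of 16 in the potassium-chloride cotransporter Slc12a7. Among the genes with low shares, the median siNC site level was 0.298 in Slc46a1 and 0.149 in Slc25a5, but 0.583 in Slc5a3 and 0.492 in Slc1a4. In Slc5a3 and Slc1a4 the median depth was 20 and 26 reads, and 3 and 4 sites were called in only 1 siVirma list. Among those with high shares, the median level was 0.651 in Slc33a1, 0.692 in Slc35f6 and 0.537 in Slc12a7. Slc2a3 combined a high share with a median site level of only 0.353. No site at all was listed in either siVirma library for 14 of the 142 Slc genes, against 1028 of 8806 over all genes. These 14 Slc genes had 0 to 3 shared sites each in siNC. Among them were the glutamate transporter Slc1a3, the mitochondrial carriers Slc25a12, Slc25a14 and Slc25a40, the bicarbonate transporters Slc4a5 and Slc4a7, and both pseudogenes.

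The m6A level of nearly every measurable Slc gene fell in siVirma. Reads were summed per gene over sites called in all 4 libraries with at least 20 A and G reads in each, which left 99 Slc genes, and 97 of them fell while 0 rose at an adjusted p under 0.05 (edgeR). Over all 5642 genes tested 93.8% fell and 0.177% rose, so the Slc share is close to the background. Neither siVirma library reached either siNC library in 97 of the 99 genes, against 95.4% of all genes. The median Slc gene had a level of 0.301 and 0.308 in the siVirma libraries, against 0.673 and 0.683 in the siNC libraries. The level left in siVirma had a median of 44.96% of siNC, with quartiles of 39.6% and 52.6%, against a median of 44.9% over all genes. These levels rest on 337 of the 844 shared Slc sites. Sites that fell under the listing minimum of 0.1 are left out, so the level left, here and below, may be overstated.

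**Figure D2:**
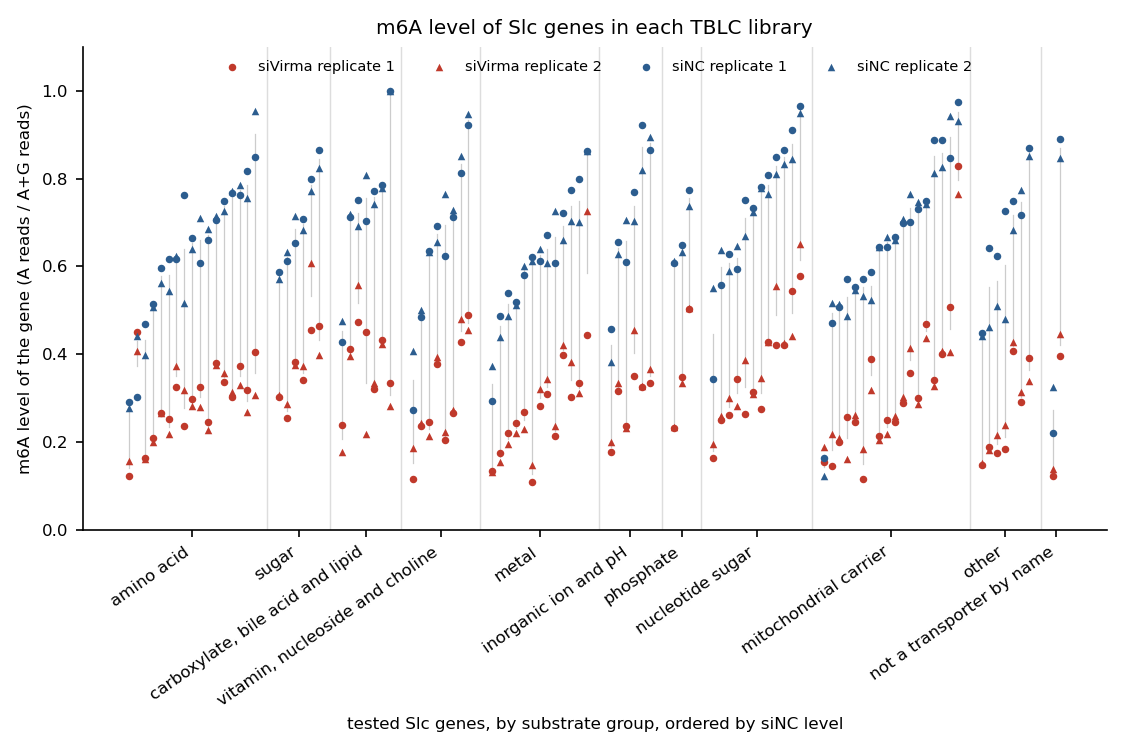
m6A level (A reads over A and G reads, y axis) of each of the 99 tested Slc genes, grouped by substrate and ordered by siNC level within a group, with siVirma libraries in red and siNC libraries in blue. Grey lines join the group means; siVirma lies below siNC in every gene except Slc3a2 among the amino acid carriers and Slc25a5 among the mitochondrial carriers.

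Amino acid carriers fell in 16 of 17 genes tested, with a median of 44.4% of the level left. Slc38a2, a sodium-coupled importer of small neutral amino acids, had levels of 0.303 and 0.314 in siVirma, against 0.767 and 0.773 in siNC, over 9 sites (40.1% left, log2 odds change -2.91 ± 0.08 SE, adjusted p = 6.17e-32). Slc7a5, the large neutral amino acid exchanger, had 0.246 and 0.227 in siVirma, against 0.660 and 0.685 in siNC (35.2% left, adjusted p = 1.14e-25). Slc1a5, a glutamine and neutral amino acid exchanger, had 0.297 and 0.283 in siVirma, against 0.666 and 0.639 in siNC (44.4% left, adjusted p = 3.01e-18). In these 3 genes the groups were far apart compared with the gap between libraries of a group.

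Slc7a1 and Slc7a3, which carry cationic amino acids, were among the 6 with the smallest fall in level (siVirma minus siNC) of the 53 Slc genes with at least 100 reads in every library. Slc7a1 had 0.326 and 0.373 in siVirma, against 0.616 and 0.624 in siNC, over 13 sites (56.3% left, adjusted p = 9.56e-18). Slc7a3 had 0.123 and 0.156 in siVirma, against 0.291 and 0.277 in siNC, at its 1 tested site (49.2% left, adjusted p = 0.000127). Slc3a2, the heavy chain that brings Slc7a5 to the cell surface, was the amino acid gene that was not called. Its 1 tested site had levels of 0.451 and 0.407 in siVirma, against 0.303 and 0.441 in siNC, groups that overlap (log2 odds change 0.34 ± 0.33 SE, adjusted p = 0.324), and without siNC replicate 1 the change was -0.06.

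Sugar carriers fell in 6 of 6 genes tested, with a median of 51.99% left. Slc2a1 had levels of 0.381 and 0.374 in siVirma, against 0.653 and 0.716 in siNC, over 6 sites (55.2% left, adjusted p = 2.46e-23). Slc2a3 had 0.301 and 0.307 in siVirma, against 0.586 and 0.572 in siNC, over 7 sites (52.6% left, adjusted p = 7.58e-27). Both glucose transporters thus kept a little more than the Slc median, while their siVirma and siNC levels did not overlap. Slc45a4 had 0.342 and 0.373 in siVirma, against 0.708 and 0.683 in siNC (51.4% left), and Slc5a3, at 1 site, kept 67.7%, a call that was lost without siVirma replicate 1.

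The carriers of carboxylates, bile acids and lipids fell in 7 of 7 genes, with a median of 45.8% left. Slc16a3, which exports lactate from glycolytic cells, had 0.473 and 0.559 in siVirma, against 0.752 and 0.692 in siNC, over 2 of its 6 shared sites (71.4% left, log2 odds change -1.30 ± 0.24 SE, adjusted p = 3.85e-06). It was also among the 6 with the smallest fall in level. Slc16a1, the monocarboxylate transporter that carries lactate and pyruvate, had 0.412 and 0.395 in siVirma, against 0.712 and 0.719 in siNC (56.4% left, adjusted p = 7.61e-17).

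The vitamin, nucleoside and choline carriers fell in 8 of 8 genes, with a median of 46.5% left. The choline transporter Slc44a1 had the largest difference of the 53 genes, with 0.489 and 0.454 in siVirma, against 0.921 and 0.947 in siNC, over 2 of its 7 shared sites (50.5% left, adjusted p = 8.53e-24). The nucleoside transporter Slc29a1 had 0.265 and 0.273 in siVirma, against 0.713 and 0.729 in siNC (37.3% left, adjusted p = 1.47e-21). Slc19a2 had 0.244 and 0.214 in siVirma, against 0.636 and 0.633 in siNC, over 10 sites (36.1% left, adjusted p = 1.09e-25). Slc44a1 and Slc29a1 show how a difference and a remaining share can part: the largest difference belonged to the gene with the higher siNC level, not to the one with the smaller share left.

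Metal carriers fell in 13 of 13 genes, with a median of 42.9% left, and had a wide range. The iron importer Slc11a2 had 0.213 and 0.235 in siVirma, against 0.608 and 0.726 in siNC, over 2 of its 6 shared sites (33.6% left, adjusted p = 3.70e-12). Slc30a1 had 0.397 and 0.421 in siVirma, against 0.722 and 0.660 in siNC, over 9 sites (59.2% left). At the ends of the group, the copper importer Slc31a1 kept 20.6% and the Golgi zinc transporter Slc30a7 67.9%, each at 1 tested site, and the call of Slc30a7 was lost without siVirma replicate 1.

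Of the inorganic ion and pH group 6 of 6 genes fell (median 42.3% left), among them Slc12a7 with 0.315 and 0.333 in siVirma, against 0.655 and 0.629 in siNC. The sodium-proton antiporter Slc9b1 had 0.176 and 0.200 in siVirma, against 0.458 and 0.382 in siNC, a small difference from a low siNC level, with 44.8% left. The phosphate group fell in 3 of 3 genes (median 53.3% left). In it Slc37a3 had 0.502 and 0.506 in siVirma, against 0.774 and 0.739 in siNC, with 66.6% left. The sodium-phosphate cotransporter Slc20a2 had 0.231 and 0.234 in siVirma, against 0.607 and 0.612 in siNC, with 38.1% left. The nucleotide sugar carriers fell in 12 of 12 genes (median 48.0% left), the 7 other carriers in 7 of 7 (median 34.98% left), and the 2 tested genes that name no transporter, Slc4a1ap and Slc7a6os, in 2 of 2. Among the other carriers, Slc17a9, which loads vesicles with ATP, had 0.291 and 0.313 in siVirma, against 0.717 and 0.775 in siNC, over 2 of its 3 shared sites.

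Mitochondrial carriers, the largest group with 28 genes, fell in 17 of 18 genes tested, with a median of 40.9% left. The ADP/ATP carrier Slc25a4 had 0.299 and 0.287 in siVirma, against 0.731 and 0.747 in siNC, at 1 tested site of its 3 shared sites (39.7% left, adjusted p = 5.52e-22). Slc25a36 had 0.244 and 0.262 in siVirma, against 0.553 and 0.545 in siNC, over 11 sites (46.1% left, adjusted p = 1.11e-23). Slc25a5, a second ADP/ATP carrier with a coverage of over 700 in every library, was not called. Its 1 tested site had 0.154 and 0.188 in siVirma, against 0.162 and 0.121 in siNC (log2 odds change 0.27 ± 0.24 SE, adjusted p = 0.269), and its groups overlap. Its siNC site levels were 0.140 to 0.207, and the other 5 shared sites were in neither siVirma list. The values of Slc25a5 are uncertain, because its reads may be shared with near-identical copies such as Slc25a5-ps, whose 3 shared sites had similar median levels of 0.155.

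At single sites the pattern was the same. Of 337 Slc sites tested, 323 fell and 0 rose (edgeR, adjusted p under 0.05), against 91.6% lower and 0.147% higher over 20414 sites, and the median level left was 43.8%, against 45.1%. The largest fall among the 133 sites with at least 50 reads in every library was in Slc7a5 at chr8:122609181, with 0.381 and 0.358 in siVirma, against 0.955 and 0.949 in siNC (log2 odds change -5.03 ± 0.29 SE, adjusted p = 1.30e-19). A second Slc7a5 site, chr8:122634094, had 0.286 and 0.278 in siVirma, against 0.804 and 0.843 in siNC. Slc25a13, the mitochondrial aspartate-glutamate carrier, had 0.338 and 0.374 in siVirma at chr6:6042209, against 0.912 and 0.926 in siNC. Slc35a4 had 0.426 and 0.286 at chr18:36816174 in siVirma, against 0.911 and 0.948 in siNC.

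The share left differed between sites of the same transcript, and whether by more than counting error was not tested. In the 27 Slc genes with at least 5 tested sites, the gap between the most and the least retained site had a median of 31.7 percentage points. In Slc38a2 the 9 tested sites kept 31.7% to 47.5%, a narrow range, whereas the 13 of Slc7a1 kept 30.1% to 94.8% and the 9 of Slc35a4 28.1% to 95.8%. Their shared sites had median siNC depths of 146.5 reads in Slc38a2, 60 in Slc7a1 and 39.5 in Slc35a4. The most retained sites of Slc7a1 and Slc35a4, each at 0.968 in siNC, were not called lower (edgeR, adjusted p = 0.0944 and 0.318). In Slc2a1 and Slc2a3 the site with the highest siNC level kept more than most tested sites of its gene. Unlike those of Slc7a1 and Slc35a4, it was called lower in both genes (edgeR, adjusted p = 1.16e-17 and 3.98e-19). It had 0.682 and 0.657 in siVirma, against 0.960 and 0.974 in siNC, in Slc2a1 (chr4:118993801, 69.2% left). In Slc2a3 it had 0.689 and 0.668 in siVirma, against 0.958 and 0.961 in siNC (chr6:122706807, 70.7% left), while the other tested Slc2a3 sites kept 39.2% to 51.1%. The most retained site of Slc2a1 was another one, chr4:118966001, with 84.5% left. Over Slc sites at 0.9 or more in siNC the median level left was 63.4%.

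**Figure D3:**
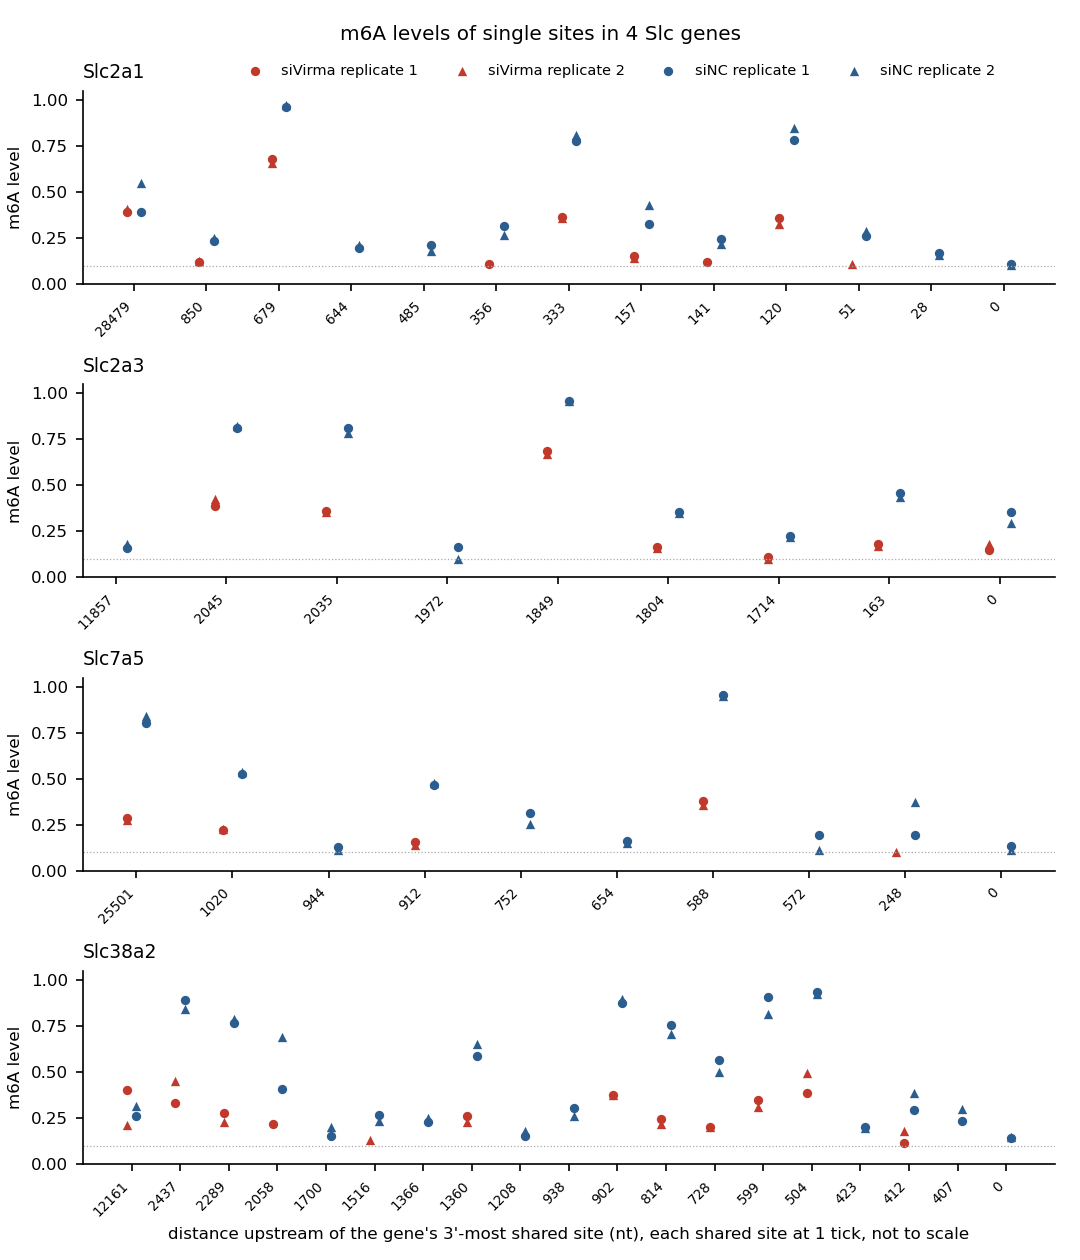
m6A level of every shared siNC site (y axis) in Slc2a1, Slc2a3, Slc7a5 and Slc38a2, ordered from the 5′ end at the left, with siVirma libraries in red left of siNC libraries in blue; tick labels give the distance in nt to the gene's 3′-most shared site and are not to scale. A missing red point means that the site was not listed, and the dotted line marks the listing minimum of 0.1; the far 5′ site of Slc2a1 overlaps between groups, while that of Slc7a5 fell to 0.286 and 0.278 in siVirma.

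Of the 337 tested Slc sites, 14 kept 80% or more of their level, and shares over all genes are given below by place in the gene. Of the 4 smallest falls or rises among sites with at least 50 reads, 3 were the 5′-most shared site of their gene: Slc25a5 at chrX:36059307, Slc3a2 at chr19:8691236, and Slc2a1 at chr4:118966001. Slc2a1 had 0.391 and 0.407 there in siVirma, against 0.393 and 0.551 in siNC (adjusted p = 0.0954). This site lies 27629 nt of genome from the next shared site, that of Slc3a2 6029 nt and that of Slc25a5 1244 nt. The remaining one, Slc37a3 at chr6:39313498, lies among the other sites of its gene and had 0.893 and 0.983 in siVirma, against 0.933 and 0.925 in siNC (adjusted p = 0.899). The groups overlap in Slc2a1, Slc25a5, Slc3a2 and Slc37a3 at these sites, and leaving out 1 library changed the sign of the change in Slc2a1, Slc3a2 and Slc37a3. Without siNC replicate 1 the Slc2a1 site was called lower (log2 odds change -0.89, adjusted p = 0.00380).

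Sites were then divided by their place in the gene, a division chosen after these values were seen and so given as a description with no test. Where the 5′-most shared site lay at least 1000 nt from the next, 3 of 9 tested Slc sites kept 80% or more and 6 fell, against 10 of 294 (3.40%) among the sites that were not 5′-most. The corresponding shares over all genes were 177 of 398 (44.5%) and 606 of 16404 (3.69%). These far sites had lower median siNC levels, 0.330 against 0.406 in Slc genes and 0.298 against 0.414 over all genes. Over all genes 36.9% of them were called in both siVirma lists, against 48.7%. Tested sites had to stay at 0.1 or more in siVirma, which leaves little room to fall from a level such as the 0.142 of the Slc25a5 site. The part of siNC level in these shares was not tested. Where the next site was nearer than 1000 nt, 0 of 29 tested Slc sites kept 80% or more, against 93 of 1934 (4.81%) over all genes. The 3 Slc sites that kept 80% or more are those that prompted the division, and the median level left over the 9 sites was 39.7%, against 68.8% over all genes. The far 5′ site of Slc7a5, 24481 nt from the next, was among the 6 that fell, with 34.2% left, and Slc2a3 had its own at 0.161 and 0.179 in siNC that was in neither siVirma list. No exons or start sites of the build were used here, so the distances are genomic and may span introns.

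Gene coverage of Slc genes changed little and in both directions. For the 121 Slc genes listed in all 4 libraries, coverage centred on the median gene was called different in 26, 13 higher and 13 lower (limma, adjusted p under 0.05), against 21.5% of all 6787 genes, 9.15% higher and 12.4% lower. The median log2 change was -0.02, against -0.04 over all genes. Centring took out a log2 shift of the median gene of 0.17 towards siVirma; with no centring 11 Slc genes were higher and 0 lower (3 lower at an unadjusted p under 0.05), against 9.46% higher and 0.442% lower over all genes. Without siVirma replicate 1, 0 of the 26 calls were kept and only 25 of all genes were called, with 19 Slc genes higher and 20 lower at an unadjusted p under 0.05. Without siNC replicate 2 there were 6 higher and 5 lower, and without siNC replicate 1, 6 higher and 12 lower.

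The 5 Slc genes with the lowest p among those higher were Slc35b2, Slc25a28, Slc52a2, Slc20a2 and Slc22a17. Slc35b2, which brings the sulfate donor into the Golgi, had a coverage of 129 and 102 in siVirma, against 81.4 and 73.3 in siNC, a centred ratio of 1.32 (adjusted p = 0.00731). The mitochondrial iron carrier Slc25a28 had 60.2 and 48.1 in siVirma, against 38.01 and 37.1 in siNC (ratio 1.28), and the riboflavin transporter Slc52a2 had 30.8 and 25.8, against 21.3 and 19.6 (ratio 1.23). Slc20a2 had a ratio of 1.23 and the lipocalin receptor Slc22a17 of 1.21. Slc2a1 and Slc7a5 were also called higher: Slc2a1 had 364 and 292 in siVirma, against 249 and 234 in siNC (ratio 1.20, adjusted p = 0.0178), and Slc7a5 186 and 150 in siVirma, against 123 and 124 in siNC (ratio 1.21, adjusted p = 0.0193). In Slc2a1 and Slc7a5 the siVirma and siNC values did not overlap with or without centring. In the same libraries the summed coverage of the fibroblast markers was higher in siVirma, as given above, and the part of other cells in these ratios was not tested.

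The 5 with the lowest p among those lower were Slc35g1, Slc25a20, Slc31a2, Slc30a7 and Slc7a3. Slc35g1 had 27.2 and 24.9 in siVirma, against 32.9 and 32.9 in siNC (centred ratio 0.705, adjusted p = 0.00257). Slc25a20, which carries acylcarnitines into mitochondria, had 45.8 and 40.1 in siVirma, against 52.5 and 53.5 in siNC (ratio 0.721, adjusted p = 0.00263). Slc31a2, a relative of the copper importer, had 20.3 and 21.0 in siVirma, against 26.4 and 25.2 in siNC (ratio 0.712). In Slc35g1, Slc25a20 and Slc31a2 siVirma was also below siNC without centring. Slc30a7 had a ratio of 0.817 and Slc7a3 of 0.824, and uncentred they were 0.918 and 0.929. The other growth-linked carriers did not pass: Slc2a3 had a ratio of 0.8996 (adjusted p = 0.0812), Slc3a2 0.964, Slc16a1 1.11 (adjusted p = 0.0685), Slc38a2 1.06 and Slc1a5 1.07. Across the 99 genes with both measures, the change in level and the change in coverage had a Spearman's rho of -0.0927, against -0.182 over all genes, as a description of genes that share libraries.

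**Figure D4:**
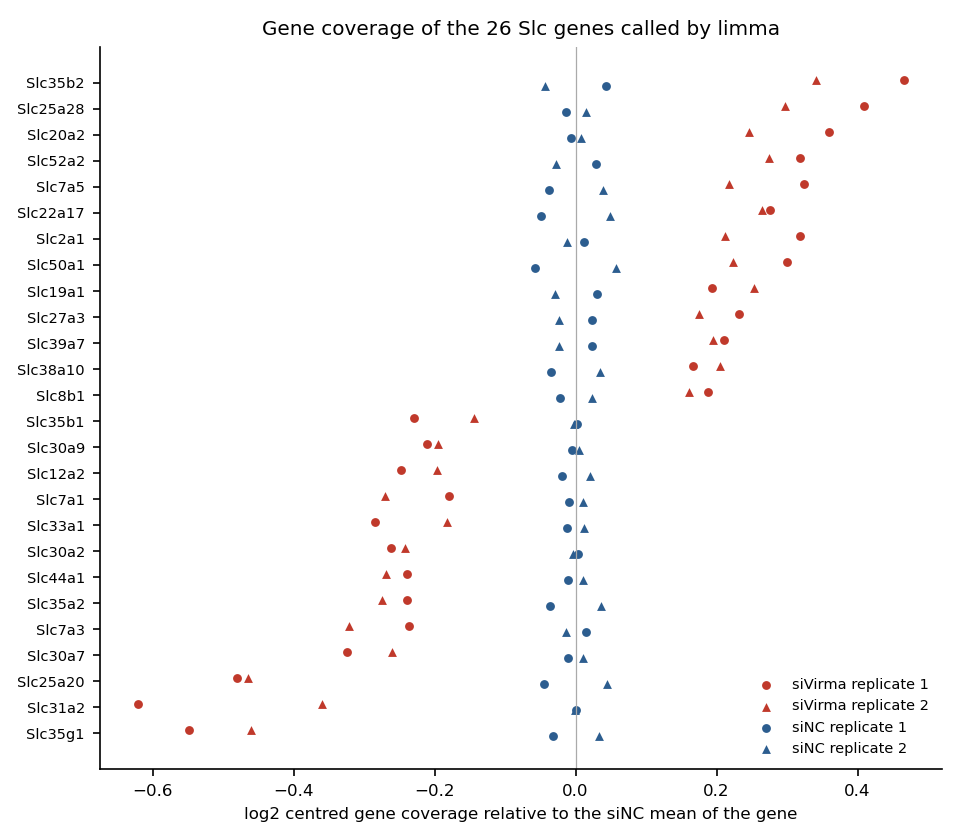
Log2 gene coverage, centred on the median gene of each library and set relative to the siNC mean of the gene (x axis), for the 26 Slc genes called by limma, with siVirma libraries in red and siNC libraries in blue. The siVirma points of the 13 upper genes lie right of their siNC points and those of the 13 lower genes left; Slc35b2 is at the top with a ratio of 1.32 and Slc35g1 at the bottom with 0.705.

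Lists drawn up by gene family names gave a comparison outside the Slc family. Not every listed gene encodes a membrane pump: Abcf1, Abcf2 and Abcf3, all tested, carry the ABC name but are not membrane transporters. Of 70 genes of the ABC transporters, P-type ATPases and V-type ATPases, 48 were in both siNC lists and 33 could be tested. Of the 33, 31 fell and 0 rose in m6A level, against 93.8% and 0.177% of all genes tested, with a median of 42.6% left. The ABC list, with these Abcf genes included, fell in 10 of 10 genes, the P-type ATPases in 13 of 13 and the V-type ATPases in 8 of 10. In coverage 2 of the 39 measured genes of these lists were higher and 12 lower, beside 13 and 13 of 121 Slc genes. Over all 6787 genes 9.15% were higher and 12.4% lower, and the difference between these families was not tested.

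In EPSC the deposited values are pooled, 1 per group, so differences have no replicate check and no p. Of the 844 shared sites 272 (32.2%) had an EPSC row, in 70 Slc genes, against 29.7% of all shared sites. Levels of Slc sites in the sgCtrl pool followed those of siNC TBLC. Over the 155 sites with at least 20 reads in each pool, the Pearson correlation was 0.924 (0.919 over all such sites). EPSC sgCtrl was lower than TBLC siNC at 72.3% of them, with a median difference of -0.06, against -0.04 over all sites. The cell types, their treatments and the way their tables were made differ together, so their parts in this difference cannot be told apart.

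Between the pools most Slc sites differed little: the median level was 0.353 in sgGata6 and 0.300 in sgCtrl over 155 sites in 42 genes, and the median of the differences site by site was 0.0145. Summed over sites, the 6 genes with the most reads had Wilson intervals that overlap between the pools. Overlap of such intervals does not show that the levels are equal, and the differences were not tested. Slc38a2 had 0.414 (95% interval 0.389 to 0.441) in sgGata6 and 0.400 (0.368 to 0.432) in sgCtrl, and Slc7a5 0.414 (0.373 to 0.455) in sgGata6 and 0.413 (0.380 to 0.447) in sgCtrl. Slc16a1 had 0.510 in sgGata6 and 0.500 in sgCtrl, Slc25a5 0.215 in sgGata6 and 0.233 in sgCtrl, and Slc2a3 0.383 in sgGata6 and 0.360 in sgCtrl. Slc2a1 had 0.407 (0.381 to 0.433) in sgGata6 and 0.448 (0.425 to 0.470) in sgCtrl.

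A difference of 0.2 or more was seen at 6 of the 155 sites, 5 higher and 1 lower in sgGata6, against 6.08% of 10185 sites, 2.92% higher and 3.16% lower. The 155 all match a shared siNC site, whereas 7238 of the 10185 do. The median sgCtrl level was 0.300 over the 155 and 0.222 over the 10185, so the site sets are unlike. The 2-oxoglutarate carrier Slc25a11 had 0.545 (0.380 to 0.702) in sgGata6 and 0.179 (0.079 to 0.356) in sgCtrl at chr11:70535516. The mitochondrial zinc transporter Slc30a9 had 0.704 (0.515 to 0.841) in sgGata6 and 1.0 (0.839 to 1.0) in sgCtrl at chr5:67512051. The others were Slc25a33 with 0.318 in sgGata6 and 0.038 in sgCtrl, Slc30a1 with 0.643 in sgGata6 and 0.378 in sgCtrl, Slc35f2 with 0.333 in sgGata6 and 0.080 in sgCtrl, and Slc12a7 with 0.552 in sgGata6 and 0.333 in sgCtrl. Each of the 6 sites had 20 to 37 reads in each pool. With a minimum of 50 reads in each pool 0 of 59 sites were past 0.2. The sources used here do not say whether molecular identifiers were used, so these intervals are taken to cover counting error and nothing else.

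**Figure D5:**
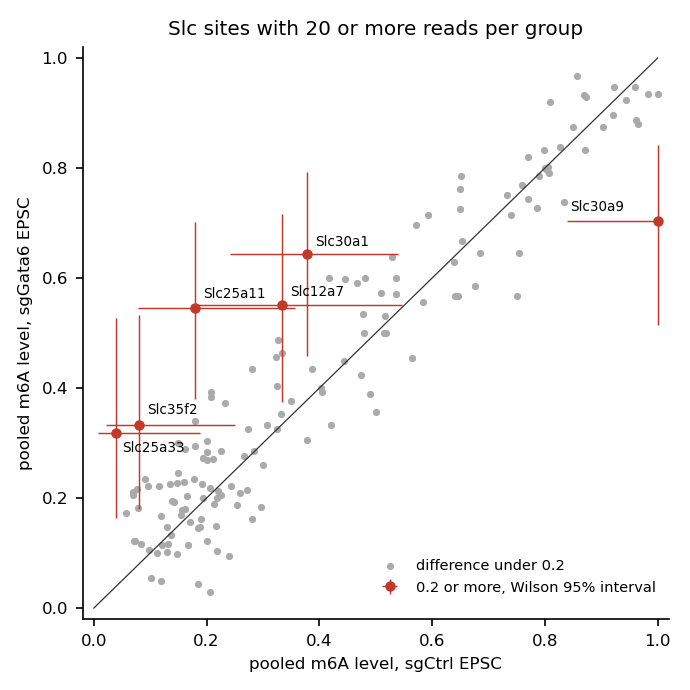
Pooled m6A level of the 155 Slc sites with at least 20 A and G reads in each EPSC pool, sgGata6 on the y axis and sgCtrl on the x axis, with the line of equal levels. Red points with 95% Wilson intervals are the 6 sites that differ by 0.2 or more, 5 of them above the line and Slc30a9 below it.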

How the data were processed

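The labels' protocols describe mRNA libraries made by GLORI and run on an Illumina sequencer. Positions are on mm39, per the submitters' processing notes. For the aligner and the site caller, names and versions were not given in the sources used here. In the deposited TBLC lists each site has 2 counts, of A and G reads together and of A reads alone, per the file headers. As a fraction, the deposited level is A over A and G reads and matched that quotient within 1e-05. Per site, the lists also carry the authors' p-value, raw and adjusted, which entered no test. The deposited conversion rate is a fraction per gene and gene coverage a signal per gene, as their column names say, with no formula given. The deposited EPSC table pools each group: its A+G column gives coverage per site, as whole reads, and its A column a count. In it 2 columns of all reads were not used here.

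The quasi-likelihood test of edgeR 4.0.16 (R 4.3.3) compared A and G counts per site and summed per gene, for sites listed in every TBLC library at 20 or more A and G reads each, with library terms and a group effect on the A counts; log2 changes are of the odds of A to G. Coverage was compared with limma 3.58.1 on log2 values centred on the median gene, for genes listed in all 4 libraries. p-values were adjusted (Benjamini-Hochberg) over all features tested, at 0.05. The tests were tried on simulated data. Alternatives were DESeq2 1.42.0, limma on logit levels with 0.5 added to A and G reads, other read minimums, no centring, a pseudocount of 1, a replicate block, and each library left out. Tables and plots were made in Python 3.11.15 with pandas 2.3.3, numpy 2.4.6, scipy 1.17.1 and matplotlib 3.10.9.

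The members and lists were chosen with earlier results of these data known. Substrate groups follow family numbers, so single members can carry other substrates. Named genes were those with the 6 largest and 6 smallest changes in level (at least 100 reads), the most sites, the lowest and highest share of sites called (at least 5 sites), the 5 lowest coverage p in each direction, the most EPSC reads or a large EPSC difference, and Slc2a1, Slc2a3, Slc3a2, Slc7a5, Slc38a2, Slc16a1 and Slc1a5; Slc7a11 was also fixed but is not in both siNC lists. Genes at the ends of a substrate group and the sites of Slc2a1 and Slc2a3 at chr4:118993801 and chr6:122706807 were named after their values were seen. The name table is of assembly GRCm38.p6, so only names were taken from it, and neither sequence nor annotation of mm39 was used here. Some items are not reported here.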

Additional observations from a re-analysis of the deposited data

How the results depend on the processing

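The number of Slc genes that fell was 97 of 99 and ranged from 96 to 102 when 1 library was left out; it was 106 of 109 at a minimum of 15 reads, 55 of 57 at 50 reads, 97 by limma on logit levels and 96 by DESeq2. Sites that fell numbered 323, with 318 to 356 on leaving out 1 library, 296 by DESeq2 and 129 of 133 at 50 reads, where fewer sites are tested. No Slc gene or site rose under any of these settings (0 also at an unadjusted p under 0.05). Among fallen genes, calls were lost in Slc30a7 and Slc5a3 without siVirma replicate 1, and in Slc35a3, Slc49a4 and Slc4a1ap without siNC replicate 2. The median level left was 44.96%, with 46.1% at 15 reads, 43.42% at 50 reads and 44.86% to 47.08% on leaving out 1 library. The share of sites called in both siVirma lists was 45.62%, 57.03% for sites with a level of at least 0.2, and 65.05% for sites in at least 1 siVirma list. Slc sites in siVirma were 56.71% of those in siNC, 49.76% at a level of at least 0.2 and 63.29% at 30 reads or more. Higher coverage was called in 13 genes and in 0 to 10 on leaving out 1 library, lower coverage in 13 genes and in 0 to 14, and with no centring lower coverage was called in 0. With the replicate number as a block, 17 were higher and 20 lower, and 97 genes and 322 sites fell in level; with only 2 pairs the numbers were not taken to pair the samples (correlation of same-numbered deviations 0.00844 for site levels and 0.138 for coverage). With no centring the coverage change took the other sign in Slc11a2 (log2 0.0583), Slc12a7 (0.1492), Slc25a36 (0.0376), Slc29a1 (0.1413), Slc2a3 (0.0138), Slc37a3 (0.0169) and Slc3a2 (0.1139), none past the threshold in either form. Leaving out 1 library turned the sign of some uncalled log2 changes. Over the libraries left out, coverage changes ranged from -0.051 to 0.0067 in Slc29a1 (turned without siVirma replicate 1), from -0.0405 to 0.0080 in Slc12a7 (siVirma replicate 2) and from -0.0217 to 0.0572 in Slc1a4 (siNC replicate 1). Level changes ranged from -0.0641 to 0.7929 in Slc3a2 and from -0.0642 to 0.7928 at its site (siNC replicate 1), from -0.6358 to 2.037 at the Slc37a3 site (siVirma replicate 2) and from -0.8886 to 0.0363 at the Slc2a1 site (siNC replicate 2), which was called lower without siNC replicate 1. EPSC sites past 0.2 were 6, 9 at 15 reads and 0 at 50 reads. Apart from the settings whose construction leaves fewer features or samples, the cause was not tested. A site with a siNC level near 0.1 has no room to fall above the listing minimum, and EPSC pools of 20 to 37 reads give wide intervals.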
